A study of Mus musculus with 2 samples.

Results

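The genes described here are the mouse genes named Zfp and a number that were well expressed in 46C embryonic stem cells. Members were all symbols of that form with a mean normalized level of at least 300 over the 2 libraries, leaving out Zfp42, Zfp57 and Zfp352. Of 311 such symbols among the 14501 rows of the table, 146 reached that mean level, and without Zfp42 and Zfp57 there were 144 members. The members were chosen by their mean level, so it is given as a description, and it weighs both libraries alike. The 3 nearest genes outside the threshold were Zfp472 (levels of 259 and 318 in PB and PB-Gbx2), Zfp111 (226 and 364) and Zfp84 (220 and 372), and the 3 nearest inside were Zfp952 (256 and 350), Zfp600 (266 and 344) and Zfp944 (294 and 318).

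RNA was sequenced from 46C mouse embryonic stem cells grown in serum medium with LIF, a cytokine that sustains their self-renewal. The PB library stands for the empty vector and the PB-Gbx2 library for a vector that overexpresses the homeobox transcription factor Gbx2, with 1 library per group and therefore no replicate error and no test between the vectors. The source names in the labels are the other way around than the titles. Groups follow the titles, which the column names share, and every direction would turn around if the source names were right. Gbx2 itself had a level of 345 in PB and 1178 in PB-Gbx2 (3.41-fold higher), at percentile 100 of the ratios of genes of similar level. The higher Gbx2 level thus lies in the library that the titles, and not the source names, give as overexpressing it. The files do not separate vector from endogenous transcripts. All 6 stem cell markers checked were listed, with summed levels of 70644 and 84692 in PB and PB-Gbx2. Most of that difference is Nanog (8918 and 19872), while Tdgf1 was equal (31035 in both) and Utf1 lower (3843 and 3430). Of 6 fibroblast markers 4 were listed, with sums of 2705 and 1966 and no row for Col3a1 or Postn. Most of these sums is Vim (1698 and 1420) and Thy1 (866 and 492). Col1a1 (132 and 36) and Col1a2 (9 and 18) were low and went opposite ways. Of 5 extraembryonic endoderm markers 3 were listed, with sums of 102 and 169 and no row for Sox17 or Sox7. Whether such other cells were present, and their part in the results, was not tested. In RNA from a whole culture, fewer cells of a type and less RNA per cell cannot be told apart.

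Zinc finger proteins of this family mostly carry arrays of C2H2 fingers, small folds held by a zinc ion between a pair of cysteines and a pair of histidines, and each finger can contact a few bases of DNA. Many also carry a KRAB box near the start of the protein. The KRAB box binds Trim28, a scaffold that brings the histone methyltransferase Setdb1, HP1 proteins and histone deacetylases to the bound site. In mouse embryonic stem cells this system is known for silencing endogenous retroviruses and for keeping imprints. Members without a KRAB box are more diverse and include transcriptional activators, chromatin cofactors and RNA-binding proteins.

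Promoter sequences are shown for 4 members that lie at the ends of the range of ratios, so that the starts of the genes with the largest differences can be read. They are the 250 bases before a start site in RefSeq, build GRCm38.p6, written 5′ to 3′ on the strand of the gene. The files were made on mm9, so these coordinates are not those of the files. Capitals mark TAATTA, a core recognised by many homeodomain proteins, and CCAAT, a common promoter element that reads ATTGG on the opposite strand. Zfp59 lies at chr7:27838334-27838583 (plus strand), Zfp809 at chr9:22225453-22225702 (plus strand), Zfp951 at chr5:104860069-104860318 (minus strand) and the inner of the listed starts of Zfp871 at chr17:32787548-32787797 (minus strand).
Zfp59: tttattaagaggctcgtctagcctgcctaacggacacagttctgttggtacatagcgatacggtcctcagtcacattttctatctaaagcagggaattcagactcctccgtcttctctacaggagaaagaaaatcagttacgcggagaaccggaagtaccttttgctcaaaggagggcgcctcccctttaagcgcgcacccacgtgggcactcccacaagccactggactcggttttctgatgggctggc
Zfp809: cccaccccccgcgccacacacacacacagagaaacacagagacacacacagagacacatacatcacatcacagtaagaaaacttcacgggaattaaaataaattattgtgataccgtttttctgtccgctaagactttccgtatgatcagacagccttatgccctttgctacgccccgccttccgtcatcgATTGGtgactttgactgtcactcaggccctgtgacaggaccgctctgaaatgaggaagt
Zfp951: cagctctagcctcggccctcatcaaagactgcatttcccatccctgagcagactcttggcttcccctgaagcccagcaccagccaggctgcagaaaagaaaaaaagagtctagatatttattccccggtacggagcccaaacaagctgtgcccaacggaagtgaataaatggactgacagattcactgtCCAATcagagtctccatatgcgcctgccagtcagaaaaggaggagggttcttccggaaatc
Zfp871: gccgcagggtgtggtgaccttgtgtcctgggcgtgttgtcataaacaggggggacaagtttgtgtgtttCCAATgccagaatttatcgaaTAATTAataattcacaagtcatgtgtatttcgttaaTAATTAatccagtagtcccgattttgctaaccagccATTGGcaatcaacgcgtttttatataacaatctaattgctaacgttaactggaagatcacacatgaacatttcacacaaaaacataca
The window of Zfp553 lies in an annotated exon and is not shown. The inner Zfp871 window held TAATTA 2 times and CCAAT or its complement 2 times. Its outer window, at chr17:32788288-32788537, overlaps annotated exons over 144 bases and is not shown; it held TAATTA 0 times and CCAAT or its complement 2 times. The windows of Zfp809 and Zfp951 held CCAAT or its complement 1 time each and that of Zfp59 held neither, which says only that these letters are not in this window.

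Promoter windows were found for 118 of the 144 members. TAATTA (its own reverse complement) was in a window of 7 of them (5.93%), against 5.65% of all 27025 genes in the promoter table. CCAAT or ATTGG was in a window of 58 members (49.2%), against 37.5% of all genes. The 27025 genes include genes of any level and genes outside the 14501 measured here. No share was computed for genes with a mean level of at least 300, so the part of expression in this difference was not tested. By KRAB box, CCAAT or ATTGG was in 30 of 54 members with the box (55.6%) and in 28 of 64 without it (43.8%). The search covered both strands, the letters of the motifs can overlap each other at an edge, and a match is a description of the sequence.

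Most members were a little higher in the PB-Gbx2 library. The log2 ratio of the PB-Gbx2 level to the PB level, each with 1 added, was above 0 for 95 of 144 members (66.0%), below 0 for 46 (31.9%) and exactly 0 for 3. Among all 8035 genes with a mean level of at least 300, 49.9% were above 0 and 48.3% below. The median log2 ratio of the members was 0.13, with a middle 50% from -0.07 to 0.34, against a median of 0.00 and a middle 50% from -0.19 to 0.19 over all genes of that level. Summed over the members, the level was 132944 in PB and 145270 in PB-Gbx2. The total over all rows is 16528899 in both by construction, as the sorted values of the 2 libraries are identical. A difference under 1.2-fold was seen for 67 members (46.5%), a smaller share than the 63% of all genes of that level. The levels differ, with a median mean level of 595 for the members and 982 for all these genes. At mean levels of 300 to 500, 500 to 1000 and 1000 or more, 47.3%, 46.9% and 45% of members differed by less than 1.2-fold. For all genes in these ranges the shares were 53.8%, 61.1% and 67.9%.

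**Figure D1:**
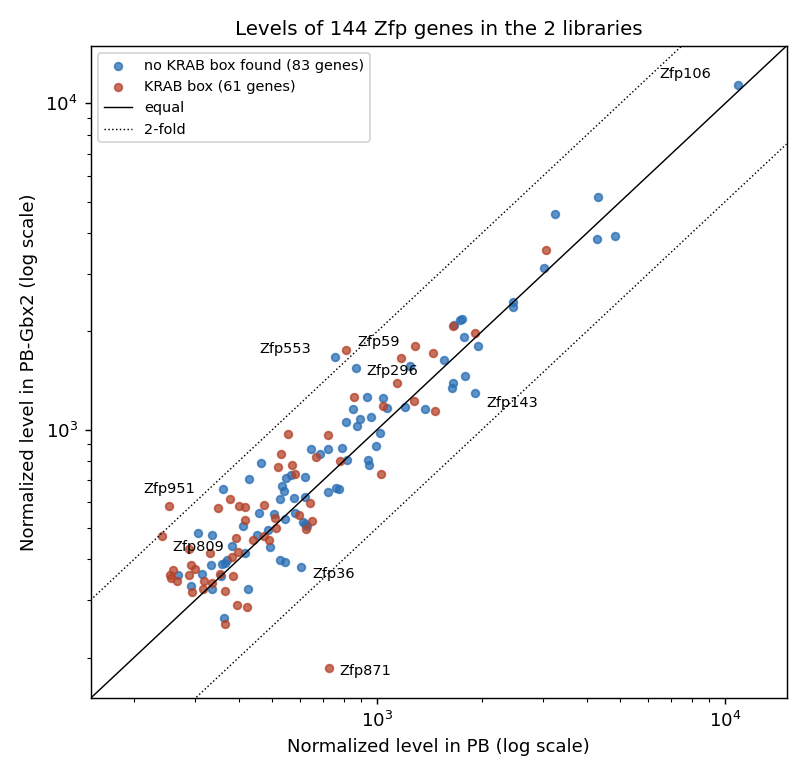
Normalized level of each of the 144 members in PB (x axis) and PB-Gbx2 (y axis), both on log scales, with members that carry a KRAB box (61) in red and the others (83) in blue, a solid line for equal levels and dotted lines for 2-fold. Zfp951, Zfp553 and Zfp59 lie above the upper dotted line and Zfp871 below the lower one.

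**Figure D2:**
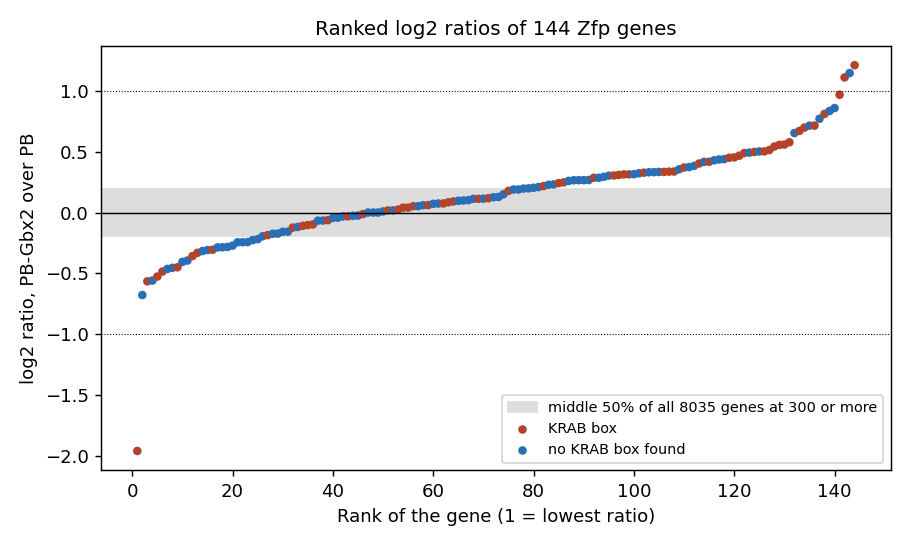
Log2 ratio (PB-Gbx2 to PB) for each of the 144 members in rank order, with the middle 50% of all 8035 genes at a mean level of 300 or more in grey (-0.19 to 0.19) and dotted lines at 1 and -1. The line of points crosses 0 after 46 members, and Zfp871 stands alone at -1.96.

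By size, 3 members were at least 2-fold higher in PB-Gbx2, where 1.13% of all genes of that level were, and 1 was at least 2-fold lower, against 1.19%. These are 2.08% and 0.694% of the members, and nothing is read from counts of 3 and 1. At 1.5-fold, 13 members were higher (9.03%, against 4.67% of all genes of that level) and 2 were lower (1.39%, against 5.03%). At mean levels of 300 to 500, 500 to 1000 and 1000 or more, 9.09%, 10.2% and 7.5% of members were higher. For all genes in these ranges the shares were 6.70%, 4.97% and 3.65%. Without the members that share over 10% of their sequence windows with another gene, 9 of 127 were higher (7.09%).

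Zfp871, a KRAB protein with 15 fingers, had the largest difference of any member. Its level was 725 in PB and 186 in PB-Gbx2, 3.90-fold lower and at percentile 0.138 of the ratios of genes of similar level. It is the single member with an adjusted p under 0.05 in the authors' deposited table (0.0297), where 0.361% of all genes of that level have one. That p-value rests on 1 library per group and is quoted as the authors'.

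At the other end stood Zfp951, Zfp553 and Zfp59. Zfp951 has 10 fingers and a KRAB box by the pattern used, though not by a stricter pattern. Its level was 252 in PB and 584 in PB-Gbx2 (2.32-fold higher). Zfp553, in which no KRAB box was found and which has 12 fingers, had 756 and 1673 (2.21-fold higher). Zfp59, a KRAB protein with 16 fingers, had 814 and 1757 (2.16-fold higher). In the authors' deposited table their adjusted p-values are 0.730, 0.250 and 0.274, none under 0.05. Of the 50-base windows of the Zfp59 transcript, 52.4% also occur in a transcript of another gene, most often Gm7452. Reads may be split between such genes. The Zfp871, Zfp951 and Zfp553 transcripts share at most 1.52% of theirs with another gene.

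Below 2-fold, Zfp809 was the nearest, with levels of 240 and 470 (1.96-fold higher). It recognises the primer binding site of murine leukaemia virus and related endogenous retroviruses and recruits Trim28 there. Next came Zfp35 (361 and 655), Zfp296 (867 and 1546), Zfp936 (554 and 972), Zfp365 (464 and 792), Zfp566 (349 and 573), Zfp408 (429 and 704), Zfp97 (377 and 612) and Zfp74 (530 and 844). Each of these was between 1.59-fold and 1.81-fold higher in PB-Gbx2. On the lower side the distances were shorter. After Zfp871 came Zfp36 (605 and 378, 1.60-fold lower), which encodes tristetraprolin and marks mRNAs with AU-rich elements for decay. Zfp932 (422 and 285), Zfp143 (1912 and 1298), Zfp948 (366 and 254), Zfp534 (1026 and 733), Zfp61 (542 and 393), Zfp423 (362 and 264), Zfp26 (395 and 289), Zfp185 (526 and 397), Zfp326 (426 and 324) and Zfp445 (1461 and 1140) were between 1.28-fold and 1.48-fold lower.

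**Figure D3:**
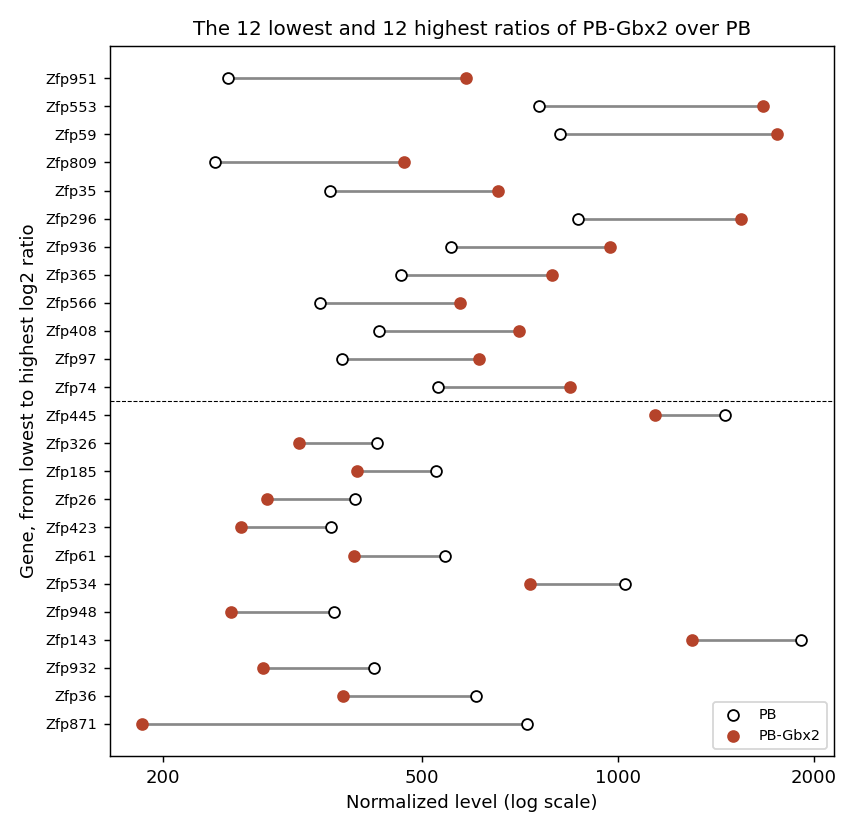
Normalized level (log scale) in PB (open circles) and PB-Gbx2 (filled circles) of the 12 members with the lowest and the 12 with the highest log2 ratio, joined by a line for each gene. The longest line belongs to Zfp871 (725 to 186), and the 11 other members of the lower set differ by 1.60-fold or less.

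A KRAB box was found by its sequence pattern in 61 of the 144 members (42.4%), which carry 2 to 23 fingers with a median of 12. The other 83 have 0 to 36 fingers with a median of 7. A divergent box can escape the pattern, so the second set may hold some KRAB proteins. A stricter pattern found the box in 51 members, so the first set may also hold false matches. Among KRAB members 45 of 61 lay above 0 (73.8%) and 16 below, with a median log2 ratio of 0.25. Among the others 50 of 83 lay above 0 (60.2%) and 30 below, with a median of 0.10. KRAB members made up 13 of the 20 highest ratios and 8 of the 20 lowest. Past 1.5-fold there were 7 KRAB members higher and 1 lower, and 6 of the others higher and 1 lower. Without members that share over 10% of their sequence windows with another gene, described below, 3 of 47 KRAB members (6.38%) and 6 of 80 others (7.50%) were at least 1.5-fold higher. No test was made between these sets, and their levels differ, with a median mean level of 492 for KRAB members and 711 for the others. The median GC content of their transcripts differs too, at 42.0% and 49.6%. With GC and length trends removed, the median log2 ratios were 0.24 for KRAB members and 0.13 for the others.

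Within ranges of level the order of the medians was the same. At a mean level of 300 to 500 the median log2 ratio was 0.24 over 33 KRAB members and 0.09 over 22 others. From 500 to 1000 it was 0.19 over 16 and 0.15 over 33, and at 1000 or more 0.27 over 12 and 0.09 over 28. All genes in these ranges had medians between 0.00 and 0.01. KRAB members that did not share the direction include Zfp871, Zfp932, Zfp948, Zfp534, Zfp26 and Zfp445.

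By number of fingers, members with no KRAB box found and 0 to 3 fingers (27 genes) had a median log2 ratio of 0.00, with 13 below 0. With 4 to 9 fingers the median was 0.20 over 30 genes, and with 10 or more 0.20 over 26 genes. KRAB members with 4 to 9 fingers (14 genes) had a median of 0.15 and those with 10 or more (45 genes) 0.31, while the share above 0 was 78.6% and 73.3%. No trend was tested. In 5 members no C2H2 finger was found. They are Zfp36, whose fingers are of the CCCH kind, Zfp185, a LIM domain protein, Zfp330, Zfp365 and Zfp839.

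**Figure D4:**
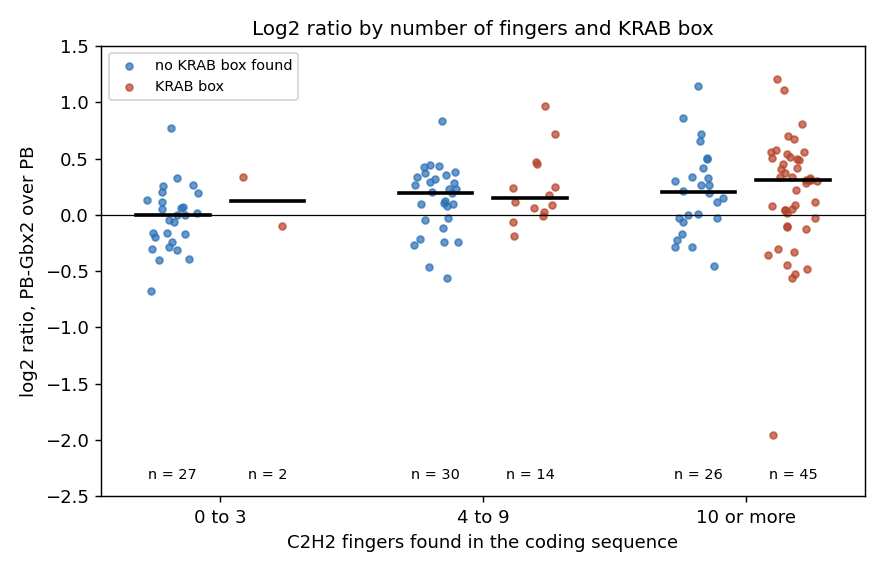
Log2 ratio (PB-Gbx2 to PB) for each member by the number of C2H2 fingers in its coding sequence, with KRAB members in red and the others in blue, spread sideways at random and with a black bar at each median. The bar lies at 0.00 for the 27 members with 0 to 3 fingers and no KRAB box found and at 0.31 for the 45 KRAB members with 10 or more fingers.

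Some members share stretches of sequence with other genes, and reads from such stretches cannot be assigned with certainty. In 17 members, 14 of them with a KRAB box, more than 10% of the 50-base windows of the transcript also occur in another gene. Their median log2 ratio was 0.37, and 2 of the 17, Zfp932 (45.2% shared, mostly with Gm15446) and Zfp534 (70.4%, mostly with Zfp987), lay below 0. Zfp97 and Zfp960 share 83.1% and 84.5% of their windows, mostly with each other, and both were higher in PB-Gbx2 (377 to 612, and 400 to 583). Zfp600 shares 85.0%, mostly with Rex2, and Zfp808 46.4%, mostly with Zfp934. Without these 17, 80 of 127 members lay above 0 and 44 below, with a median of 0.11, and the median of KRAB members was 0.22 over 47 genes.

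Zfp genes often lie side by side. By the gene order of RefSeq, 25 members form 11 runs of direct protein-coding neighbours. All members lay above 0 in 5 runs, and the other 5 runs were mixed or held a ratio of 0. In 1 run all lay below 0 (Zfp236 and Zfp516, at -0.07 and -0.02, which turn to 0.08 and 0.05 once GC and length trends are removed). Of all 144 members 66.0% lay above 0, and nothing is read from these counts of runs. Zfp960 and Zfp97 form 1 of the runs above 0 and share 84.5% and 83.1% of their windows, mostly with each other. Their reads may not be told apart. Zfp760, Zfp229 and Zfp820 had log2 ratios of 0.04, 0.29 and 0.50, the first of which is -0.01 with those trends removed. Zfp799 (291 and 385) and Zfp870 (569 and 779) were both higher, as were Zfp566 (349 and 573) and Zfp260 (1038 and 1248). Zfp383 (649 and 525) was lower next to Zfp74 (530 and 844) and Zfp568 (3047 and 3543), which were higher.

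Among members with a known part in retroelement silencing and imprinting, directions were split. Of 6 listed genes 4 were members, 2 above and 2 below 0. Zfp809 was higher, as given above, and Zfp568, which represses a placental promoter of Igf2, was 1.16-fold higher (3047 and 3543). Zfp445, which keeps imprints together with Zfp57, was 1.28-fold lower (1461 and 1140). Zfp932, which silences endogenous retroviruses in embryonic stem cells, was 1.48-fold lower (422 and 285). Zfp819 had levels of 119 and 83, under the threshold, and Zfp708 has no row.

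Of 10 listed stem cell genes 9 were members. Their median log2 ratio was 0.23, with 6 above 0 (66.7%), 2 below and Zfp281 at 0. Of all 144 members 66.0% lay above 0, against 49.9% of all genes with a mean level of at least 300. Zfp296, a partner of Klf4 that helps reprogramming, stood at 867 and 1546 (1.78-fold higher). Zfp281, which binds the Nanog promoter, had a level of 2460 in both libraries. Zfp706 (1727 and 2160), Zfp217 (1754 and 2182), found in complexes with the demethylase Lsd1, and Zfp207 (4306 and 5175), a kinetochore and splicing factor, were higher by at least 1.2-fold and at most 1.25-fold. Zfp131 (524 and 614) and Zfp462 (1776 and 1922), which works with the H3K9 methyltransferase G9a, were less than 1.2-fold higher. Zfp143, an activator that binds many promoters, was 1.47-fold lower (1912 and 1298), and Zfp423, a cofactor of Smad and Ebf proteins, 1.37-fold lower (362 and 264). Zfp521 has no row.

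Of the 8 members listed for a role in RNA and translation, 5 were below 0 (62.5%), against 48.3% of all genes with a mean level of at least 300. Their median log2 ratio was -0.18, and 6 of the 8 differed by less than 1.2-fold. Besides Zfp36, Zfp326, a subunit of a complex that couples splicing to transcription, was 1.31-fold lower (426 and 324). Zfp346, which binds double-stranded RNA, had 776 and 655, Zfp622, a maturation factor of the large ribosomal subunit, had 759 and 663, and Zfp598, a ubiquitin ligase for collided ribosomes, had 4286 and 3843. Each of these 3 was lower by less than 1.2-fold. Zfp106 (10913 and 11378) and Zfp638 (3018 and 3129) differed by 1.04-fold, and Zfp830 (541 and 648) was higher by just under 1.2-fold. Of the 5 below 0, 1 passed 1.5-fold, and no test sets this list apart. The list does not hold every member that acts on RNA. The splicing factor Zfp207 (4306 and 5175) was higher and is counted with the stem cell genes.

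Chromatin cofactors and activators had 9 of 13 members above 0 (69.2%), 4 below and a median log2 ratio of 0.10, and none passed 1.5-fold. The share above 0 was 66.0% over all members and 49.9% over all genes with a mean level of at least 300. Zfp384 (646 and 874), Zfp64 (811 and 1058), Zfp219 (1246 and 1570) and Zfp148 (686 and 841) were 1.23-fold to 1.35-fold higher. Zfp592 (504 and 550) and Zfp687 (1554 and 1636), which associate with Zmynd8, differed by 1.09-fold or less, while their relative Zfp532 was 1.22-fold lower (1638 and 1343). Zfp740 (4836 and 3907) and Zfp512 (945 and 777) were 1.24-fold and 1.22-fold lower. Zfp410, known as an activator of Chd4, had 314 and 360, and Zfp644, a partner of G9a, had 576 and 616. Zfp335 (618 and 622) and Zfp516 (820 and 806) differed by at most 1.02-fold. Zfp827 was under the level threshold (130 and 136). The ubiquitin ligase Zfp91 (852 and 1155) and the SUMO ligase Zfp451 (932 and 1255) were 1.36-fold and 1.35-fold higher.

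**Figure D5:**
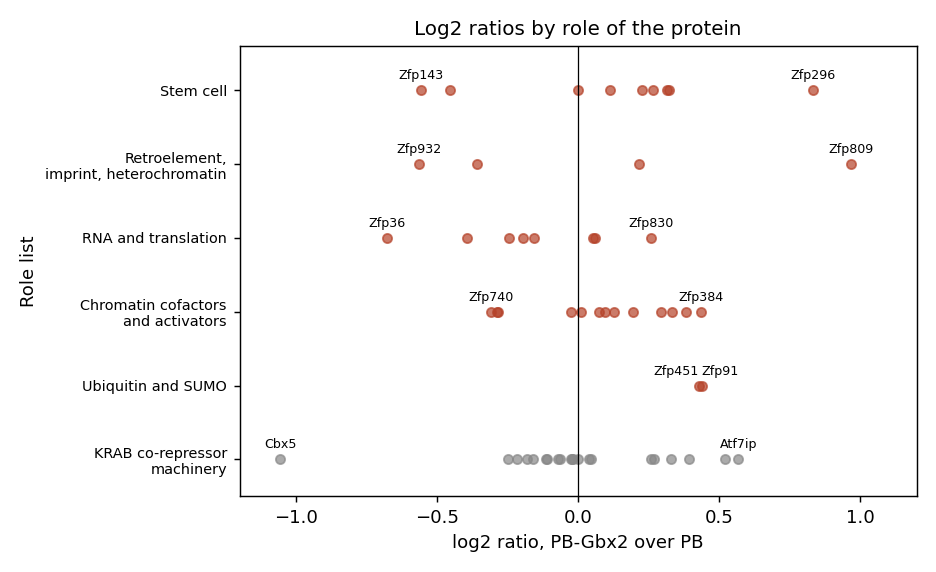
Log2 ratio (PB-Gbx2 to PB) of single genes by role of the protein, with members in red, the KRAB co-repressor genes, which are no members, in grey, and the lowest and highest gene of each list named. The stem cell list runs from Zfp143 (-0.56) to Zfp296 (0.83), and the co-repressor list from Cbx5 (-1.05) to Atf7ip (0.57).

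By level, Zfp106, Zfp207, Zfp740, Zfp598 and Zfp710 had the highest values of the members. These levels are not divided by transcript length, so they do not rank the genes by number of transcripts. Of the 5, Zfp710 differed most (3246 and 4565, 1.41-fold higher).

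The machinery that KRAB proteins recruit is given as context. Trim28 had a level of 21408 in PB and 26878 in PB-Gbx2 (1.26-fold higher). Setdb1, the H3K9 methyltransferase brought by Trim28, was 1.43-fold higher (2506 and 3596) and its partner Atf7ip 1.48-fold higher (1128 and 1673). Cbx5, which encodes HP1 alpha, was 2.08-fold lower (12915 and 6216), whereas the other HP1 genes Cbx1 (4406 and 4081) and Cbx3 (1864 and 1782) differed by 1.08-fold or less. The median log2 ratio of the 21 listed genes was -0.02, with 8 above 0 (38.1%) and 12 below (57.1%). Over all genes with a mean level of at least 300 these shares were 49.9% and 48.3%. Cbx5 was the single one past 1.5-fold.

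Zfp genes under the threshold, 164 without the named exceptions, had a median log2 ratio of 0.28, and 108 of them (65.9%) were above 0 and 52 below. Other zinc finger genes with a mean level of at least 300 had medians of 0.17 (15 Zfp genes with a letter after the number), 0.25 (23 Zbtb genes) and 0.15 (10 Zscan and Zkscan genes). Of these, 11, 17 and 7 lay above 0 (73.3%, 73.9% and 70%), against 49.9% of all genes with a mean level of at least 300. The lean above 0 is therefore not shown to be particular to the members. Zfp42 (8320 and 16671) and Zfp57 (9905 and 16722) were left out of the members and were higher in PB-Gbx2, the latter by 1.69-fold, and Zfp352 had levels of 18 and 33.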

How the data were processed

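RNA from 2 cultures of 46C cells, 1 per vector, was sequenced from libraries made with a TruSeq RNA kit, per the labels' protocols. Reads were handled with STAR on mm9, per the submitters' processing notes. Which annotation and which counting program were used is not stated in those sources, nor whether strand was used, so reads of overlapping genes may not be told apart. The authors' deposited table gives a level per gene and library, a normalized score in whole numbers whose sorted values are identical in both libraries, as after quantile normalization, so depth is unknown and no counting interval can be given. The authors also deposited the ratio of PB over PB-Gbx2, its log2 and a p-value with its adjusted value; no test between the vectors was made here.

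From the levels, log2((PB-Gbx2 + 1)/(PB + 1)) was computed, which understates changes of low genes. Fold changes are ratios of levels. A gene was called at 2-fold or 1.5-fold. Its percentile is its place among genes in the same of 20 bins of mean level. The members and the role lists were chosen with earlier results of these data known, and so was the rule for named genes: the 12 lowest and highest ratios, the 5 highest levels, the 3 genes on either side of the threshold and every listed gene. The KRAB and finger counts, shared windows and promoters were added after seeing the data. Coding sequences came from GENCODE M21 transcripts (GRCm38), matched for all 144 members. A finger was a pair of cysteines with 2 to 4 residues between, 12 residues, and a pair of histidines with 3 to 5 between. The KRAB box was searched by a pattern of its conserved residues ahead of the fingers, in every coding transcript of a gene. Promoters came from RefSeq (GRCm38.p6). The measure was tested on simulated data. Python 3.11.15, numpy 2.4.6 and pandas 2.3.3 were used.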

Additional observations from a re-analysis of the deposited data

How the results depend on the processing

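No paired analysis was possible because PB and PB-Gbx2 are single libraries, and for the same reason neither could be left out. An offset of 0.1 or 5 and rescaling by the median left all 4 counts of members past a fold as they were, and moved the ratios of 83 single members, among them every member named in the text, by at most 0.02 on the log2 scale; rescaling has no effect by construction, as both libraries share one median. With a minimum mean level of 500 or 1000 in place of 300, 0 members were at least 2-fold lower and 0 at least 1.5-fold lower, since Zfp871 and Zfp36 have mean levels under 500, and 8 and 3 members were at least 1.5-fold higher, of 89 and 40 members. With a minimum of 200, 4 members were at least 1.5-fold lower, of 173. The median log2 ratio of the members lay between 0.11 and 0.19 under all alternatives run, that of KRAB members between 0.22 and 0.27, and that of the others between 0.09 and 0.13. Alternatives chosen after seeing the data were the removal of GC and length trends, leaving out members that share windows, and a stricter KRAB pattern (51 genes, median 0.22). With the trends removed, the median was 0.17 for the members, with 14 members at least 1.5-fold higher and 3 lower. Of the 144 members, 97 then lay above 0 and 46 below. The ratios of the 83 single members moved by at most 0.15. Among these 83, 4 ratios near 0 changed sign, Zfp236 to 0.08, Zfp516 to 0.05, Zfp760 to -0.01 and Zfp335 to -0.01. The other members were not followed singly, so sign changes among them are not listed. Depth is unknown, so it could not be said what depth limits.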
